A study of Mus musculus with 27 samples.

Results

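The genes described here belong to the Notch pathway, namely 4 ligands (Dll1, Dll4, Jag1 and Jag2), the 4 receptors (Notch1, Notch2, Notch3 and Notch4) and 2 target genes (Hes1 and Heyl). They were taken by symbol from a table of 40129 mouse genes. All 10 were listed, and all 10 reached a mean of 1 normalized read, the limit for testing. Normalized reads are read counts divided by one size factor per mouse. For each mouse, RNA came from whole retinas of wildtype pups of the strain C57BL/6, given as C57BL/6J in the study's methods, without a transgene or deletion in any group. OIR pups breathed 75% oxygen between p7 and p12 and room air afterwards, and were sampled at p14 (6 mice) or p17 (8 mice). nOIR pups stayed in room air until p14 (7 mice) or p17 (6 mice). nOIR p14 mouse S4 was left out because the study excluded it for lens transcripts. This left 6 mice in that group and 26 in all. Each library held the RNA of 1 mouse, from a single retina or from both. The pups of each group came from more than 1 litter, and which mouse came from which litter was not used here.

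Notch signaling passes between cells that touch each other. A ligand on one cell binds a receptor on its neighbor, the receptor is cut by ADAM proteases and gamma-secretase, and its intracellular part joins the DNA-binding protein RBPJ to switch on target genes of the Hes and Hey families. In growing retinal vessels, Dll4 on endothelial tip cells signals to Notch1 and Notch4 on the following stalk cells and restrains sprouting, whereas Jag1 can oppose Dll4 there. Notch3 is the receptor of pericytes and vascular smooth muscle cells, in which Heyl is one of its targets. Outside the vessels, Notch1 and Hes1 act in retinal progenitors and Müller glia. In the OIR model, high oxygen removes the central retinal capillaries, and the ischemic retina later grows new vessels toward the vitreous.

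Promoter sequences are shown for the members that rose in OIR retinas at p17 and have an entry in the RefSeq table, and for Hey2, another target gene that rose. Each sequence is the 250 bases before the start of the gene (GRCm38.p6, RefSeq), written 5′ to 3′ on the strand of the gene. Capitals mark the RBPJ core GTGGGAA or the hypoxia response core ACGTG on either strand. Dll4 lies on the plus strand at chr2:119325534-119325783, Notch1 on the minus strand at chr2:26503823-26504072, Notch3 on the minus strand at chr17:32166891-32167140, Notch4 on the plus strand at chr17:34564045-34564294 and Hey2 on the minus strand at chr10:30842784-30843033.
Dll4: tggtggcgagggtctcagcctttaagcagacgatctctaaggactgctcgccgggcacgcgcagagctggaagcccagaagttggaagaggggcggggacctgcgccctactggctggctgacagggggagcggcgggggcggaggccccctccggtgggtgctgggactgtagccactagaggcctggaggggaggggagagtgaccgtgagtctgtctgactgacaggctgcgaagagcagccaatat
Notch1: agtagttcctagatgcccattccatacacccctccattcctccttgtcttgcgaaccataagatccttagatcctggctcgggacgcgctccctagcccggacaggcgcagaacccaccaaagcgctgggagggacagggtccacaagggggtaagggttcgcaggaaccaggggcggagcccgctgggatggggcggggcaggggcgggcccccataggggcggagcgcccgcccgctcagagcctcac
Notch3: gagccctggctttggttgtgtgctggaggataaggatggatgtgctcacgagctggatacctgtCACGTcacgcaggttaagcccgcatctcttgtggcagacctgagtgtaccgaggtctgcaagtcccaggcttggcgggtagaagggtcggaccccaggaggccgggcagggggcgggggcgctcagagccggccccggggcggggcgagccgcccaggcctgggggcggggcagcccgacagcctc
Notch4: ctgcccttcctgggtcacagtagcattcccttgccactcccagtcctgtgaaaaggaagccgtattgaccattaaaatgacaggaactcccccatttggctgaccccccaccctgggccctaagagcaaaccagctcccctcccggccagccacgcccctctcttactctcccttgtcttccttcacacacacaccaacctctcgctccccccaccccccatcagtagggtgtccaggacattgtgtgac
Hey2: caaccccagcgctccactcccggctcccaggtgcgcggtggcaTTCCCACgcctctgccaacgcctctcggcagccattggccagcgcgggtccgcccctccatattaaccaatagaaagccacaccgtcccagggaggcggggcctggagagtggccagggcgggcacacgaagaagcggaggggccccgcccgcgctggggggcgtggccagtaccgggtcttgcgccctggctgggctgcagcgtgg
Neither motif was found in these windows of Dll4, Notch1 and Notch4, nor in those of Jag1, Jag2, Dll1 and Notch2. The Notch3 window held ACGTG on the opposite strand, with its first base 186 bases before the start. This start is not among the transcript starts of Gencode M21. The Hey2 window held GTGGGAA on the opposite strand, 207 bases before the start. GTGGGAA was also found in the window of Hes5, a target that was not called at either age, with 2 matches at 226 and 83 bases before the start, and ACGTG in that of Nrarp, also not called. Among 32851 promoters of the same length, 5.42% held GTGGGAA and 16.6% held ACGTG on either strand. A match describes letters and not a bound site.

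Depth lay between 17029536 and 33593428 recovered reads, with a median of 30182576 over the 26 mice used. Genes were tested with limma on log2(normalized reads + 1), and genes were called where the p-value, adjusted over the 27137 genes tested, was under 0.05. Scaling all mice to one common total changed the balance of calls over all genes from 862 higher and 790 lower to 1019 and 609 at p14, and from 2005 higher and 1390 lower to 2406 and 964 at p17. Cell type markers moved with the groups. The summed level of 10 endothelial markers was 10053 to 13131 normalized reads in nOIR and 8027 to 13083 in OIR mice at p14, and 8175 to 9974 in nOIR and 11895 to 15557 in OIR mice at p17. The sum of 10 pericyte and smooth muscle markers was 3696 to 4309, 2234 to 4360, 3029 to 3828 and 10210 to 15908 in the same order. At p17, 8 of 10 endothelial and 10 of 10 pericyte and smooth muscle markers were called higher in OIR mice. At p14, 1 endothelial marker was called higher and 1 lower, and 3 pericyte and smooth muscle markers were called higher and 3 lower. No marker of either list was at 0 in every mouse of a group. The sum of 4 astrocyte markers was higher in OIR mice at both ages, with 3344 to 9712 against 1181 to 1976 at p14, where 3 of 4 were called higher, and 3447 to 10509 against 1095 to 1691 at p17, where 4 of 4 were. At p17 the summed levels were also higher in OIR mice for 6 microglia markers (2500 to 3912, against 1607 to 1908) and 5 red blood cell markers (1227 to 16980, against 195 to 1191). The sum of 5 bipolar cell markers was lower in OIR mice at p17 (24304 to 33122, against 37366 to 43064). The part of these in the results was not tested. In bulk retina, fewer cells of a type and less RNA per cell cannot be told apart. The lens marker Cryaa ranged from 0 to 6771 normalized reads in nOIR and from 2.15 to 2377 in OIR mice at p14, and from 23.8 to 4432 in nOIR and from 74.7 to 12404 in OIR mice at p17. OIR p14 mouse S1 had the lowest value of its group in 9 of 10 members. It was lowest, alone or tied with other mice, in 30.8% of all genes tested. Ties, as at 0 reads, were counted for S1, so its share without ties was not given by this count. Results at p14 are therefore also given without it where that changes a call, turns a direction or moves a called value by over 1.5 times.

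The first question was how the Notch genes differed between OIR and nOIR retinas, at p14 with its large avascular areas and at p17 with its neovascular growth. At p14, only Dll4 was called among the 10 members in the fit reported here, and it was higher in OIR mice. In the same comparison 3.18% of all genes tested were called higher and 2.91% lower. At p17, Dll4, Heyl, Notch3, Notch4 and Notch1 were called higher in OIR mice, that is 5 of 10 members, and 0 were called lower (limma). The background was 7.39% called higher and 5.12% called lower over all genes tested. edgeR and DESeq2 also called 0 members lower at both ages. At an unadjusted p under 0.05, 4 members passed at p14 (17% of all genes), of which Dll1 and Hes1 were lower, and 6 passed at p17 (23.3% of all genes), of which Hes1 was lower. The median log2 fold change of the members was -0.14 at p14 and 0.39 at p17, beside 0.02 and -0.02 over all genes tested. The plot of log2 fold changes shows these values with their 95% intervals.

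**Figure D1:**
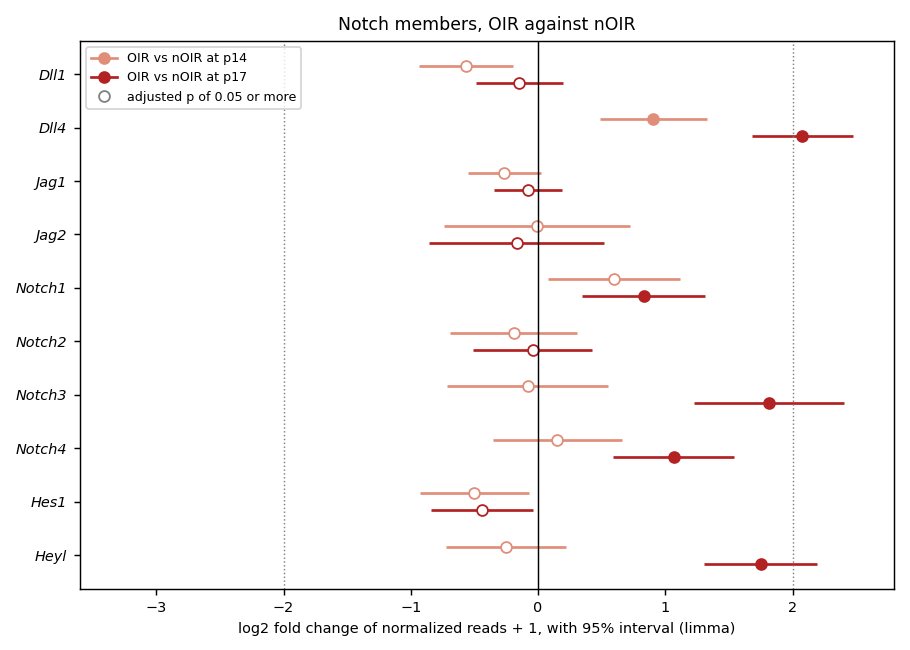
Log2 fold change (horizontal axis, log2 of normalized reads + 1) of each of the 10 members in OIR against nOIR mice at p14 and at p17, with 95% intervals from limma. Filled points are called at an adjusted p under 0.05, and dotted lines mark 2 and -2. Dll4 is the only filled point at p14, and 5 points are filled at p17.

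Among the ligands, Dll4 alone rose, and it rose at both ages. Dll4 is the main Notch ligand of sprouting endothelium. In nOIR p14 mice it had a lowest value of 58.6, a median of 83.7 and a highest value of 107 normalized reads, and in OIR p14 mice 93.3, 156 and 226. In nOIR p17 mice the values were 57.8, 77.4 and 98.9, and in OIR p17 mice 210, 337 and 415. At p14, 5 of 6 OIR mice lay above all nOIR mice, and the sixth, S1, lay within their range. At p17, all 8 OIR mice lay above all nOIR mice. Non-overlap with higher OIR values was found in 3.9% of all genes at p17. Its log2 fold change was 0.90 ± 0.21 (SE) at p14 (limma, adjusted p = 0.00531) and 2.08 ± 0.19 at p17 (limma, adjusted p = 2.74e-09). The two-sided exact permutation p was 0.00866 at p14 and 0.000333 at p17, the smallest that 8 against 6 mice allow. A called gene counts as a DEG when its log2 fold change also lies above 2 or below -2. Dll4 was the only DEG among the members, and 1.9% of all genes were DEG with higher values at p17. The 95% interval of its log2 fold change was 1.68 to 2.47, and the value was 1.95 with quantile normalization, 1.98 with Cryaa as a covariate and 1.99 without nOIR p17 mouse S2.

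Jag1, an endothelial and glial ligand, was not called at either age. Its mean was 2814 ± 269 normalized reads (SD, n = 6) in nOIR p14 and 2394 ± 551 (n = 6) in OIR p14 mice, and 3107 ± 290 (n = 6) in nOIR p17 and 2981 ± 601 (n = 8) in OIR p17 mice. OIR mice differed by -0.26 on the log2 scale at p14, with a 95% interval from -0.55 to 0.02, and -0.08 at p17, with an interval from -0.35 to 0.19. A change of 1 on the log2 scale lies outside both intervals. Jag2, a ligand with roles in several epithelial and neural tissues, was not called at either age. It ranged from 231 to 1134 normalized reads in OIR p14 and from 399 to 1687 in OIR p17 mice, against 381 to 946 and 552 to 1102 in the controls. The groups overlapped at both ages, and its log2 fold change of -0.01 at p14 (interval from -0.74 to 0.72) turned to 0.29 without OIR p14 mouse S1. At p17 the value was -0.17 (interval from -0.85 to 0.52).

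Dll1, a ligand best known from neural progenitors, was the member closest to a call toward lower values. It had a lowest value of 325, a median of 392 and a highest value of 447 normalized reads in nOIR p14 mice, and 165, 242 and 413 in OIR p14 mice. At p14, 4 of 6 OIR mice lay below all nOIR mice, and the other two lay within their range. This gave a log2 fold change of -0.57 ± 0.18 (SE) (limma, adjusted p = 0.0589), which did not pass the threshold. It passed in 5 of 38 fits, among them those without OIR p14 mouse S4 (adjusted p = 0.0123, limma) and without OIR p14 mouse S5 (adjusted p = 0.0385, limma). Without OIR p14 mouse S1 the log2 fold change was -0.44, with the highest adjusted p of the 38 fits (limma, adjusted p = 0.1635). At p17 the groups were closer, with -0.15 and a 95% interval from -0.49 to 0.20.

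**Figure D2:**
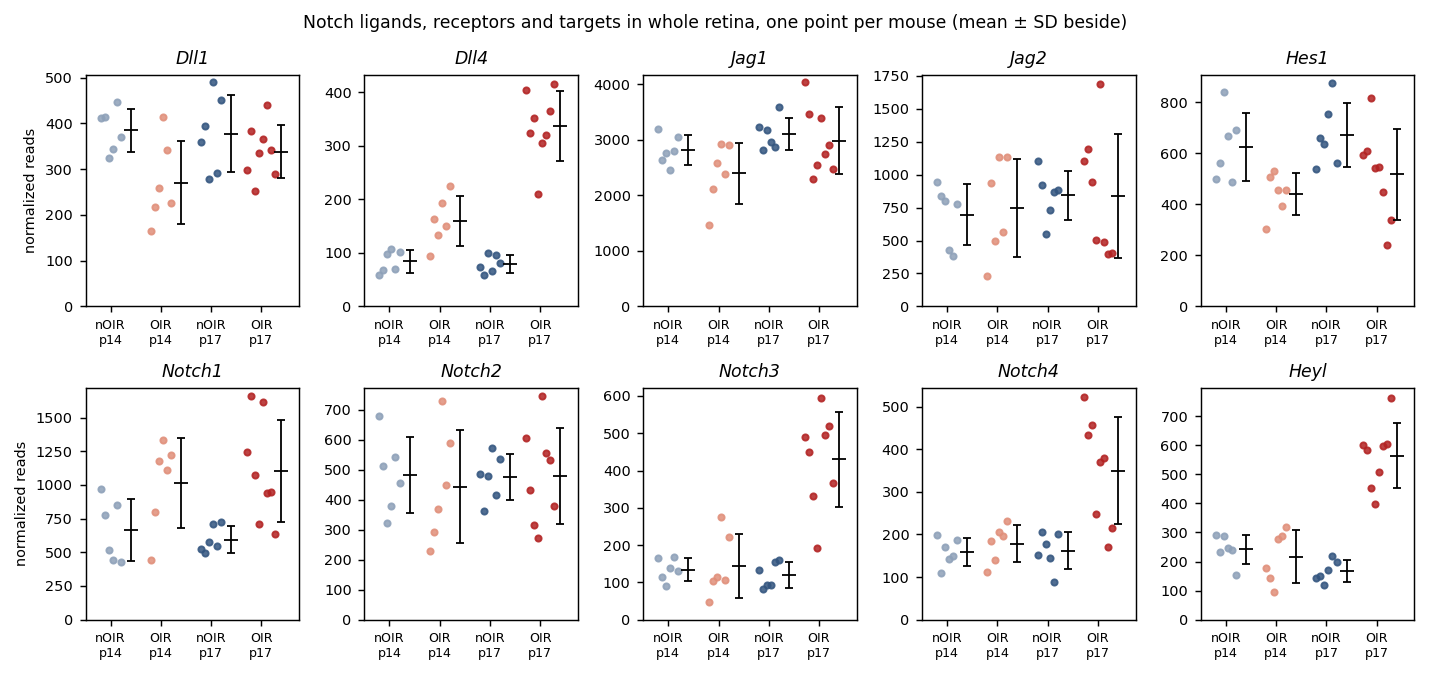
Normalized reads (vertical axis, linear from 0) of the 10 members in each of 26 mice, by group, with the group mean and SD beside the points. For Dll4, Notch3 and Heyl all 8 OIR p17 points lie above all nOIR p17 points, whereas the Jag1, Jag2, Notch2 and Hes1 groups overlap at both ages.

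Of the receptors, Notch1, Notch3 and Notch4 rose at p17 and Notch2 was not called. Notch3, the receptor of mural cells, showed the highest fold change of the 4 at p17. It had a lowest value of 82.7, a median of 114 and a highest value of 160 normalized reads in nOIR p17 mice, and 192, 470 and 594 in OIR p17 mice. No OIR p17 mouse overlapped the controls. Notch3 rose by 1.81 ± 0.29 on the log2 scale (SE, limma, adjusted p = 2.85e-05), with a two-sided exact permutation p of 0.000333. At p14 the values were 89.0, 134 and 167 in nOIR mice and 46.7, 111 and 274 in OIR mice. The OIR p14 mice reached both below and above the controls, and the log2 fold change of -0.08 (95% interval from -0.71 to 0.55) turned to 0.20 without OIR p14 mouse S1, to 0.13 in edgeR and to 0.11 in DESeq2.

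Notch4, a receptor largely restricted to endothelium, had a lowest value of 89.1, a median of 165 and a highest value of 205 normalized reads in nOIR p17 mice, and 171, 375 and 523 in OIR p17 mice. At p17, 7 of 8 OIR mice lay above all controls and 1 lay within their range. Notch4 rose by 1.07 ± 0.23 on the log2 scale (SE, limma, adjusted p = 0.00146, exact permutation p = 0.00366). At p14 the difference was 0.15, with a 95% interval from -0.36 to 0.66.

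Notch1, a receptor of endothelium and of neural progenitors and glia, had a lowest value of 495, a median of 559 and a highest value of 722 normalized reads in nOIR p17 mice, and 639, 1012 and 1659 in OIR p17 mice. At p17, 6 of 8 OIR mice lay above all controls. Notch1 rose by 0.83 ± 0.24 on the log2 scale (SE, limma, adjusted p = 0.0165, exact permutation p = 0.00466). At p14 the controls had 425, 646 and 972 and the OIR mice 440, 1145 and 1337 normalized reads. At p14, 4 of 6 OIR mice lay above all controls, but the log2 fold change of 0.60 was not called (limma, adjusted p = 0.200). Without OIR p14 mouse S1 it was 0.82 and was called (limma, adjusted p = 0.0320).

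Notch2, a receptor of many cell types, had means of 482 ± 127 normalized reads (SD, n = 6) in nOIR p14 and 443 ± 188 (n = 6) in OIR p14 mice, and of 475 ± 76.6 (n = 6) and 479.9 ± 159 (n = 8) at p17. OIR mice differed by -0.19 on the log2 scale at p14 (95% interval from -0.69 to 0.31) and -0.04 at p17 (interval from -0.51 to 0.42). The sign at p17 turned with a common total for all mice (0.02), in edgeR (0.02) and in DESeq2 (0.01).

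Of the targets, Heyl rose at p17 and Hes1 was not called. Heyl, a transcriptional repressor of the Hey family, had a lowest value of 120, a median of 160 and a highest value of 219 normalized reads in nOIR p17 mice, and 397, 590 and 764 in OIR p17 mice. The groups did not overlap. Heyl rose by 1.75 ± 0.22 on the log2 scale (SE, limma, adjusted p = 5.47e-07), with a two-sided exact permutation p of 0.000333. At p14 the controls had 154, 243 and 291 and the OIR mice 93.8, 228 and 319.6 normalized reads, and these ranges overlapped. The log2 fold change at p14 was -0.25, with a 95% interval from -0.73 to 0.22.

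Hes1, a repressor that also answers to other signals, was not called at either age. It had a lowest value of 487, a median of 617 and a highest value of 840 normalized reads in nOIR p14 mice, and 302, 457 and 529 in OIR p14 mice. At p17 the controls had 541, 649 and 878 and the OIR mice 239.6, 546 and 818. Below all controls lay 4 of 6 OIR mice at p14 and 3 of 8 at p17. Its log2 fold change was -0.50 ± 0.21 (SE) at p14 (limma, adjusted p = 0.193) and -0.44 ± 0.20 at p17 (limma, adjusted p = 0.160), with the same sign in all 38 fits at each age.

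The other genes of the pathway were described from a list of 46, which were all listed and all tested. At p14, 0 were called higher (limma) and 1 lower, beside 3.18% and 2.91% of all genes, and 7 had an unadjusted p under 0.05, as did 17% of all genes. At p17, 5 were called higher and 1 lower, beside 7.39% and 5.12% of all genes, and 12 had an unadjusted p under 0.05, as did 23.3% of all genes. These shares of the list lay near those of all genes. The median log2 fold change of the list was -0.01 at p14 and -0.004 at p17. Dlk1, an atypical ligand without the domain that activates Notch receptors, went from a mean of 4.60 ± 4.01 normalized reads (SD, n = 6) in nOIR p17 to 100.3 ± 30.6 (n = 8) in OIR p17 mice. Its groups did not overlap, and its log2 fold change of 4.49 ± 0.42 (SE, limma, adjusted p = 2.92e-09) was the only one past 2 in this list. At p14 it had 0.90 (95% interval from -0.01 to 1.82), with overlapping groups and no call (limma, adjusted p = 0.301). Hey2, a vascular target gene, rose by 0.91 (limma, adjusted p = 8.31e-06). Rbpj, the DNA-binding partner of the cleaved receptors, rose by 0.36 (limma, adjusted p = 0.0231). Mfng, a glycosyltransferase that modifies Notch receptors, and Adam17, a protease, rose by 0.41 and 0.33 (limma, adjusted p = 0.0268 and 0.0314). Mfng and Adam17 were named after their values were seen.

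Dner, an atypical Notch ligand of neurons, was the one gene of the list called lower. It went from 6424 ± 521 normalized reads (SD, n = 6) in nOIR p14 to 5046 ± 756 (n = 6) in OIR p14 mice, and from 6416 ± 592 (n = 6) to 3885 ± 263 (n = 8) at p17. The groups did not overlap at either age, which held in the lower direction for 1.86% of all genes at p14 and 1.98% at p17. Dner differed by -0.36 at p14 (limma, adjusted p = 0.0139) and by -0.72 at p17 (limma, adjusted p = 2.60e-07). Of the canonical targets, Hes5 had -0.69 and -0.62 at p14 and p17 without a call (limma, adjusted p = 0.116 and 0.0874). Hey1 had 0.06 and 0.15, and Nrarp, a feedback inhibitor, had -0.12 and 0.45, again without a call. Lfng, a glycosyltransferase, had 0.02 and 0.07, and the ligand Dll3 had -0.07 and -0.13. Dlk2, the paralog of Dlk1, was named after its values were seen. It had -0.73 and -0.59 without a call (limma, adjusted p = 0.0701 and 0.0882), and 4 of 6 OIR mice lay below all controls at p14 and 7 of 8 at p17.

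**Figure D3:**
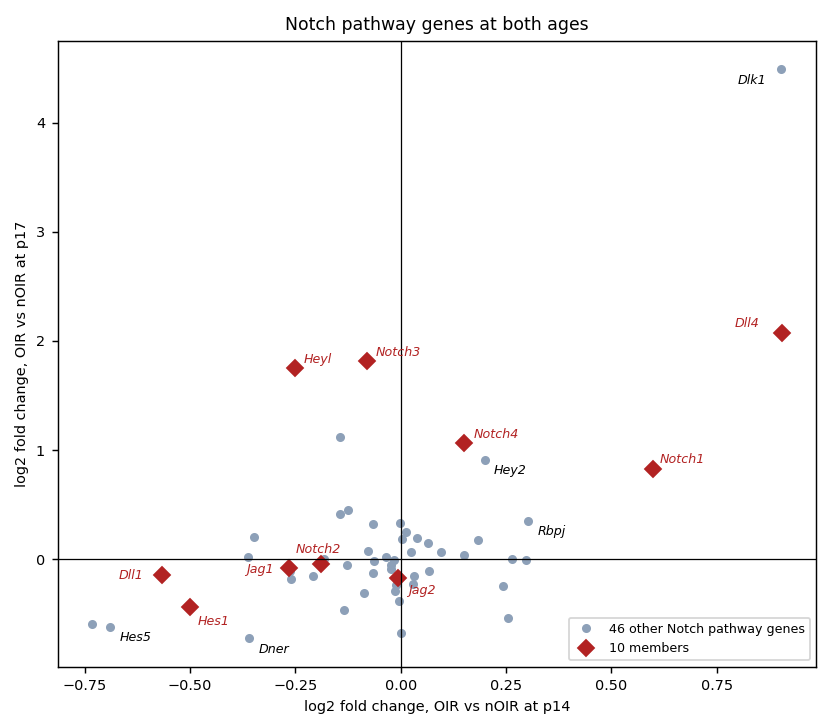
Log2 fold change in OIR against nOIR mice at p14 (horizontal axis) and at p17 (vertical axis, on another scale) for the 10 members and the 46 other pathway genes. Dll4 was called higher at both ages and Dlk1 at p17 alone, while Notch3 and Heyl lie at -0.08 and -0.25 at p14 and at 1.81 and 1.75 at p17.

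Comparison of the ages asked which members changed from p14 to p17 within a treatment. These comparisons share mice with those above. In nOIR mice 0 of 10 members were called (limma, edgeR and DESeq2), beside 0.317% of all genes in limma. An unadjusted p under 0.05 (limma) was found for 1 member, Heyl, with a log2 fold change of -0.53, and for 7.37% of all genes. In OIR mice 4 of 10 members were higher at p17 and 0 were lower (limma), beside 4.11% of all genes called higher and 1.81% lower. Notch3 was 1.72 higher on the log2 scale (limma, adjusted p = 0.000224), Heyl 1.47 (adjusted p = 3.98e-05, limma), Dll4 1.10 (adjusted p = 0.000357, limma) and Notch4 0.91 (adjusted p = 0.0137, limma). All 8 OIR p17 mice lay above all OIR p14 mice for Heyl, as in 1.41% of all genes, and 7 of 8 did for Notch3 and Dll4. Notch1 was close at both ages in OIR mice, with a log2 fold change of 0.13 (95% interval from -0.35 to 0.62), which was -0.09 without OIR p14 mouse S1.

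Whether the OIR effect differed between the ages was tested with an interaction contrast, p17 minus p14. For 3 of 10 members the effect was higher at p17 and for 0 lower (limma), beside 1.43% of all genes higher and 0.147% lower. The difference was 2.00 ± 0.32 on the log2 scale for Heyl (SE, limma, adjusted p = 0.000282), 1.89 ± 0.42 for Notch3 (limma, adjusted p = 0.0123) and 1.17 ± 0.28 for Dll4 (limma, adjusted p = 0.0235). The Dll4 call was lost without nOIR p14 mouse S5 (limma, adjusted p = 0.0518) or nOIR p17 mouse S2 (limma, adjusted p = 0.0508). For Notch4 it was 0.92 ± 0.34 and not called (limma, adjusted p = 0.251), and for Notch1 0.23, with a 95% interval from -0.48 to 0.94.

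Levels were compared between genes only as normalized reads per kilobase of exon (union of exons, Gencode M21). Jag1 was highest in every group, with a mean between 411 and 533, followed by Hes1 with 216.5 to 330 and Jag2 with 99.8 to 121. In nOIR mice these 3 were followed by Dll1, and the ranges of Dll1 and the next gene did not overlap, whereas most neighbors below it overlapped. Dll4, Notch4 and Notch3 were the 3 lowest in nOIR mice, with means from 14.8 to 21.8. In OIR p17 mice Heyl (110) and Dll4 (87.4) came after Jag2 and before Dll1 (80.3), and all neighbors in that order overlapped. Among the 4 ligands, the share of Dll4 was 3.19% ± 0.98 (SD, n = 6) in nOIR p14 and 6.65% ± 0.71 (n = 6) in OIR p14 mice, and 2.71% ± 0.67 (n = 6) in nOIR p17 and 11.2% ± 2.89 (n = 8) in OIR p17 mice. Neither OIR group overlapped its control. Jag1 made up 64.0 to 69.8% on average in all groups. Among the 4 receptors, the share of Notch3 was 12.3% ± 3.56 in nOIR p17 and 24.4% ± 4.83 in OIR p17 mice, and that of Notch2 was 36.5% ± 2.88 and 20.4% ± 3.80. In OIR p14 mice Notch1 held 47.0% ± 5.06 of the receptor level, against 35.9% ± 5.87 in the controls. These shares were not tested.

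**Figure D4:**
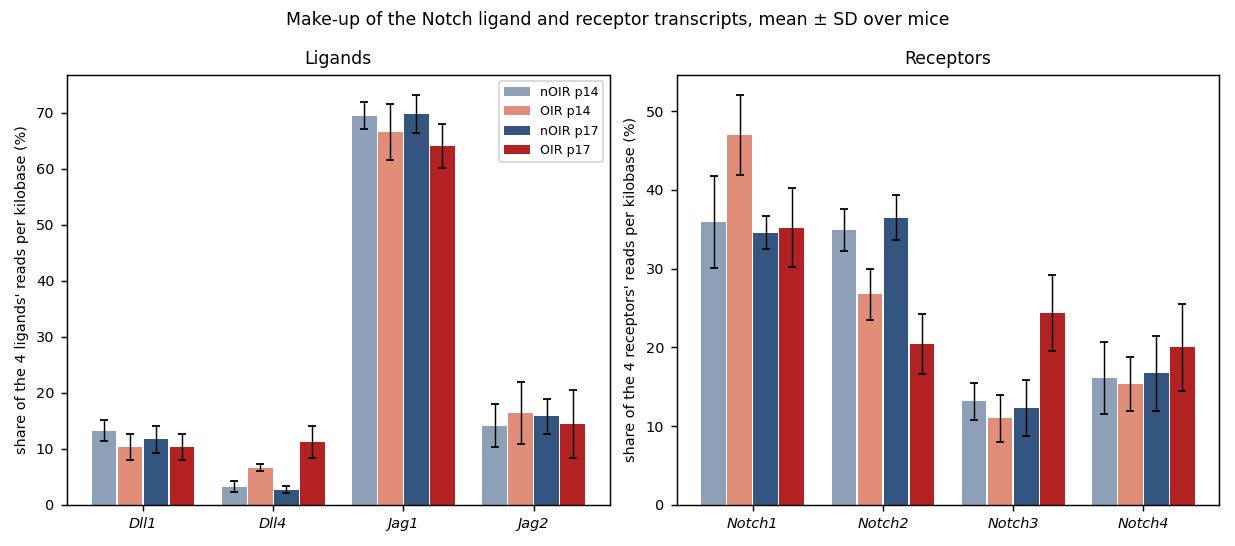
Mean share (percent, bars from 0, with SD over mice) of each gene in the summed reads per kilobase of the 4 ligands (left) and of the 4 receptors (right), by group. The Dll4 bar is higher in both OIR groups than in their controls, and at p17 the Notch3 bar is higher and the Notch2 bar lower in OIR mice.

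Because vascular markers moved with the groups, each member was also expressed per 1000 normalized reads of a marker sum. Exact permutation tests (two-sided) were run for 60 such ratios, with p-values adjusted over the 60. Per endothelial marker read, Dll4 was higher in OIR mice at both ages. At p14 its lowest, median and highest values were 4.54, 7.22 and 10.7 in nOIR mice and 9.17, 15.3 and 20.4 in OIR mice. At p17 they were 7.01, 8.68 and 12.1 in nOIR mice and 17.8, 22.9 and 30.0 in OIR mice. The groups overlapped at p14 by OIR mouse S1 and not at p17. The log2 ratio was higher by 1.08 ± 0.25 (SE) at p14 (exact permutation p = 0.00649, adjusted p = 0.0185) and by 1.40 ± 0.16 at p17 (exact permutation p = 0.000333, adjusted p = 0.00182). Dll4 was the 1 member of 10 called higher at p14, beside 7.91% of all genes at the same p, and at p17 Dll4, Heyl and Notch3 were called higher, beside 2.82% of all genes. At p14 Dll4 was also the 1 member called higher per pericyte and smooth muscle read (13.5% of all genes) and per Müller glia read (14% of all genes). Without OIR p14 mouse S1, Notch1 was called higher at p14 as well per endothelial read, and both Notch1 and Notch4 were per pericyte and smooth muscle read and per Müller glia read (exact permutation test).

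The endothelial sum rested largely on Kdr, the main VEGF receptor of endothelial cells. Kdr held 55.6 to 65.9% of the sum in nOIR p14, 62.2 to 67.6% in OIR p14, 49.3 to 61.2% in nOIR p17 and 31.1 to 47.1% in OIR p17 mice. It was not called at p17 (0.20 on the log2 scale, limma, adjusted p = 0.422), whereas 8 of the other 9 endothelial markers were called higher. Per read of these 9 markers without Kdr, an alternative added after the data were seen, Dll4 was higher by 1.18 ± 0.22 (SE) at p14 (exact permutation p = 0.00216, adjusted p = 0.00812) and by 0.98 ± 0.14 at p17 (exact permutation p = 0.000333, adjusted p = 0.00182), and its groups did not overlap at either age. Heyl was higher by 0.65 ± 0.17 at p17 (exact permutation p = 0.00333, adjusted p = 0.0111). Notch3 was at 0.72 ± 0.26 and no longer called (exact permutation p = 0.0273, adjusted p = 0.0712), and Notch4 was at -0.03 ± 0.29 (exact permutation p = 0.923). On this scale 1 member was called higher at p14, beside 13.3% of all genes at the same p, and 2 were at p17, beside 1.71%. At p17, 5 members were called lower, beside 62.4% of all genes, namely Hes1 (-1.54), Jag2 (-1.26), Dll1 (-1.24), Jag1 (-1.17) and Notch2 (-1.14), where the median of all genes was -1.12. Jag2 was not called lower per read of the sum with Kdr (-0.85, exact permutation p = 0.0253, adjusted p = 0.066).

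Per endothelial marker read, Notch4 differed by 0.39 ± 0.26 (SE) on the log2 scale at p17, which was not called (exact permutation p = 0.175, adjusted p = 0.319). Jag1, Dll1, Hes1 and Notch2 were lower per endothelial read at p17 by the same test, in a direction that 47.2% of all genes shared and in which the median of all genes was -0.70. Per read of pericyte and smooth muscle markers, 0 members were called higher at p17 (exact permutation test, beside 0.641% of all genes), and 7 were called lower, beside 82.9% of all genes. On that scale Notch3 had a median of 35.0 in nOIR p17 and 35.6 in OIR p17 mice, and Heyl 47.5 and 44.8. Their log2 differences were -0.10 ± 0.24 (SE, exact permutation p = 0.701) and -0.16 ± 0.13 (exact permutation p = 0.264), beside a median of -1.93 over all genes. Dll4 had 0.17 ± 0.14 on the same scale (exact permutation p = 0.235), while Notch4 was lower by this test, with -0.84 ± 0.29 (exact permutation p = 0.0153, adjusted p = 0.0418). Per read of 8 Müller glia markers, Dll4, Heyl, Notch1, Notch3 and Notch4 were called higher at p17, beside 16.8% of all genes. That marker sum was 67478 to 78382 normalized reads in nOIR p17 and 55555 to 74692 in OIR p17 mice. Its markers were called in both directions at p17 (limma), with Rlbp1, Glul, Aqp4, Dkk3 and Kcnj10 lower and Vim and Sox9 higher.

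**Figure D5:**
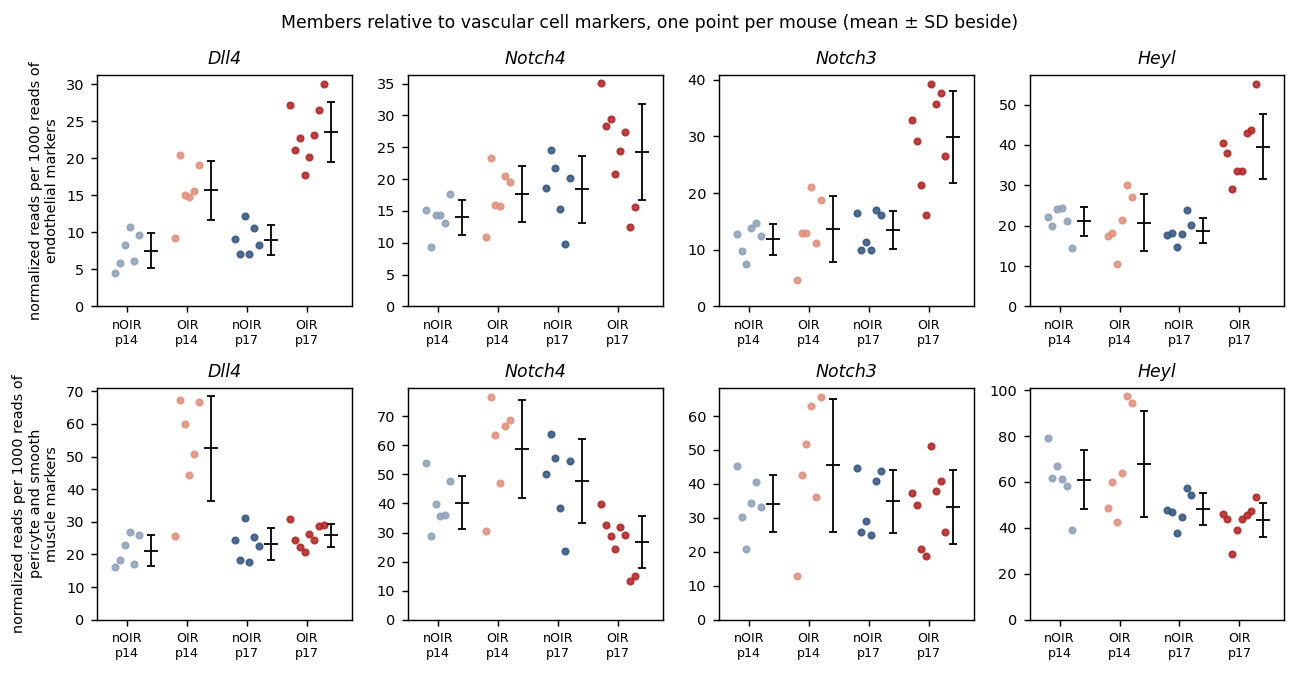
Dll4, Notch4, Notch3 and Heyl per 1000 normalized reads of the summed endothelial markers (top) and of the summed pericyte and smooth muscle markers (bottom), with 1 point per mouse and the mean and SD beside. Dll4 is higher in OIR p17 mice than in their controls in the top row, while Notch3 and Heyl overlap with their controls at p17 in the bottom row.

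The genes whose levels ran closest to a member were named by the highest Pearson r of log2 values over the 26 mice, among 14457 genes whose mean reached 50 normalized reads. Group differences enter this r, so the r within groups stands beside it, and both are given as a description. For Dll4 the closest were Clic4 (0.943, within groups 0.515), Apln (0.940, 0.386) and Fblim1 (0.938, 0.331). Apln encodes a peptide of sprouting endothelium. For Notch3 they were Cspg4 (0.929, within groups 0.776), Col4a2 (0.925, 0.881) and Myh9 (0.918, 0.898). Cspg4 is the pericyte proteoglycan NG2 and one of the markers used above, and Col4a2 is a chain of basement membrane collagen. For Heyl they were Ets1 (0.939, within groups 0.735), Trp53i11 (0.935, 0.690) and Cspg4 (0.909, 0.651). For Notch4 they were Pdgfb (0.842, within groups 0.652), Lamc1 (0.830, 0.709) and Slc7a5 (0.820, 0.527). Pdgfb is the endothelial growth factor that recruits pericytes. For Hes1 they were Tmem189 (0.881, within groups 0.871), B630019K06Rik (0.875, 0.868) and Rnf11 (0.864, 0.861), so that its likeness was nearly as high within groups as over all mice.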

How the data were processed

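Whole retinas of OIR and nOIR mice were sequenced by the authors without strand information, 1 library per mouse. Per the study's methods, reads were aligned with RNA STAR 2.7.8a using Gencode M28, counted with featureCounts 2.0.1, and genes at 0 in all samples were removed. The deposited signal is normalized reads, that is counts divided by a DESeq2 1.34 size factor. Deposited columns with the authors' group means, log2 fold changes and adjusted p-values were not used. The value of 1 read was estimated for each mouse from its deposited values. Division by this estimate gave whole reads for 100% of values above 0 (tolerance 0.01 reads). Samples were grouped by treatment and age. Limma 3.58.1 (lmFit, eBayes with trend, R 4.3.3) was fitted to log2(normalized reads + 1) of all 4 groups, for genes with a mean of at least 1, with Benjamini-Hochberg adjustment over 27137 genes. Exact permutation tests were run with Python 3.11.15 and scipy 1.17.1.

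Alternatives changed the pseudocount to 0.1, or the filter to every gene above 0 or to a mean of 10 or more. Others were inclusion of nOIR p14 mouse S4, the compared groups only, a replicate block, a common total, quantile normalization, log2 Cryaa as a covariate, edgeR 4.0.16 and DESeq2 1.42.0 on the recovered reads, and leaving out each mouse. An endothelial marker sum without Kdr was added after the data were seen. On these reads edgeR called 865 genes higher and 697 lower at p14, and 2050 and 1190 at p17. The limma steps were tested on simulated data. Named genes were all members, a fixed set of pathway genes, and the 3 pathway genes with the smallest adjusted p in each direction and comparison. The members and gene lists were chosen with earlier results of these data known. PCR copies were not removed, so totals are reads and not molecules. No pair of mice in a group was a copy of the other (chi-square per degree of freedom of at least 9.39). Reads of overlapping genes on opposite strands cannot be told apart, and the near-identical Aph1b and Aph1c can share reads.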

Additional observations from a re-analysis of the deposited data

Results flagged for a closer look

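The OIR effect was higher at p17 than at p14 on the log2 scale by 1.17 for Dll4, 1.89 for Notch3, 2.00 for Heyl and 3.59 for Dlk1, each called in limma's test of the difference itself. In OIR p17 mouse S3, Dll3 had 84.6 normalized reads, which set it apart from the other 7 mice of its group by Dixon's test. This was 1 of 88 groups of mice tested in 22 genes, where chance gives about 1 in 20.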

How the results depend on the processing

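The p17 calls of Dll4, Heyl, Notch3, Notch4 and Notch1 and the p14 call of Dll4 held in all 38 fits, and so did the 4 calls of p17 against p14 in OIR mice. At p14, the number of members called lower was 1 (Dll1) instead of 0 with a mean of at least 10, with nOIR p14 mouse S4 included, and with the replicate block. Leaving out each mouse gave 1 to 2 members higher and 0 to 1 lower at p14, with Notch1 added without OIR p14 mouse S1. The same left-out mice gave 1 to 2 members higher per endothelial marker read at p14, 1 to 3 per pericyte and smooth muscle read and 1 to 3 per Müller glia read. Same-numbered mice did not deviate together (34 pairs, median correlation of 0.003, 4 over 0.1, and 5 of 26 mice closest to their own number), so the numbers do not pair mice. With the replicate block, 1 member (Heyl) instead of 3 had a higher effect at p17 than at p14, since Dll4 was at 1.00 (adjusted p = 0.144) and Notch3 at 1.84 (adjusted p = 0.0502), and Dll4 was at 1.99 at p17. The cause was not tested.

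Signs turned only for members that were not called in that comparison. For OIR against nOIR at p14, Jag2 was at 0.0366 with the same total per mouse, 0.00584 with quantile normalization, 0.108 with the Cryaa covariate, 0.120 in edgeR and 0.108 in DESeq2, and Notch3 was at 0.127 in edgeR and 0.113 in DESeq2. At p17, Jag2 was at 0.0158 with the block and 0.00369 in edgeR, and Notch2 at 0.0246 with the same total, 0.0198 in edgeR and 0.0122 in DESeq2. For p17 against p14 in nOIR mice, Dll4 was at 0.00467 with the block. In that comparison Notch2 was at -0.0855 with S4, -0.00044 with the block, -0.0383 with the same total, -0.0121 with the Cryaa covariate, -0.0160 in edgeR and -0.0205 in DESeq2. Notch4 was at 0.0353 with the Cryaa covariate, 0.0250 in edgeR and 0.0204 in DESeq2. In the difference of effects, Jag2 was at 0.0904 with the block. With 1 mouse left out, the ranges that crossed 0 were -0.166 to 0.292 for Jag2 and -0.309 to 0.197 for Notch3 at p14, and -0.144 to 0.0645 for Notch2 at p17. In nOIR mice they were -0.130 to 0.0319 for Dll1, -0.167 to 0.0109 for Dll4, -0.212 to 0.0264 for Notch1, -0.103 to 0.113 for Notch2 and -0.106 to 0.158 for Notch4. In OIR mice they were -0.135 to 0.323 for Jag2, -0.0893 to 0.235 for Notch1 and -0.0152 to 0.318 for Notch2, and in the difference -0.0206 to 0.313 for Notch2 and -0.0466 to 0.206 for Hes1.

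The fit with only the compared groups gives no difference of effects. Litter was not modelled, so p-values take mice as independent. Dll4, with under 100 normalized reads on average in controls, carries more counting error than Jag1.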
